A study of Homo sapiens with 6 samples.

Results

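Ribosome biogenesis genes encode the proteins that transcribe, cut, modify and assemble ribosomal RNA in the nucleolus, and they are described here in LNCaP-AI cells with and without knockdown of METTL1, a methyltransferase that places N7-methylguanosine on RNA. The genes were chosen by symbol: 50 were named, and 48 were found by pairing the Ensembl identifier of each row with its symbol, out of 20308 genes in the tables. DDX52 and BOP1 were not analysed here. The 48 genes fall into 6 roles, namely RNA polymerase I (Pol I) transcription with 7 genes, box C/D snoRNP proteins with 4, box H/ACA snoRNP proteins with 4, abundant nucleolar phosphoproteins with 4, small subunit assembly factors with 18 and large subunit assembly factors with 11.

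LNCaP-AI is a human prostate cancer line that represents castration-resistant disease, and all 6 libraries came from cells labelled as under androgen deprivation. The shMETTL1 group (3 libraries) carried a stably integrated lentiviral short hairpin against METTL1, and the shscramble group (3 libraries) carried a control hairpin in the same background. The data come from 1 cell line, and the labels do not say that the replicates were separate cultures, so that p-values measure only the spread between these libraries, which may be technical. The labels give no day or batch for any library.

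In the nucleolus, Pol I copies the ribosomal DNA repeats into a long precursor RNA. Small nucleolar ribonucleoproteins (snoRNPs) then modify it: box C/D particles guide 2'-O-methylation through fibrillarin (FBL), and box H/ACA particles guide pseudouridylation through dyskerin (DKC1). The small subunit processome folds and cuts the 18S part, while a separate series of factors matures the large subunit around the 5.8S and 28S rRNAs. Many of these genes are known targets of MYC, which binds the E-box CACGTG.

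The libraries held between 3389897 and 3604835 estimated counts, a ratio of 1.06, and between 13196 and 13655 genes with an FPKM above 0 (fragments mapped to a gene, divided by its transcript length and by the library's mapped fragments). Mitochondrial genes took 11.2% to 13.1% of the counts. METTL1 itself was at 13.9, 18.5 and 21.0 FPKM in the shscramble libraries and at 8.35, 10.5 and 8.18 FPKM in the shMETTL1 libraries, so the groups did not overlap and the shMETTL1 mean was 50.7% of the shscramble mean. Its log2 fold change was -0.93 ± 0.22 (SE, adjusted p = 0.127, limma) and -1.36 ± 0.37 (SE, adjusted p = 0.0368, edgeR), and the exact two-sided permutation test gave p = 0.1, the smallest value that 3 against 3 libraries allow. All 10 of 10 luminal prostate markers were present, with a summed level of 2610 to 2669 FPKM in shscramble and 2097 to 2355 FPKM in shMETTL1, while KRT5, DCN, LUM, CDH5, KDR, PTPRC, CD3E and CD79A, markers of basal, stromal, endothelial and blood cells, were at 0 in all 6 libraries. Of the other markers of such cells, CD68 at a mean of 10.7 FPKM and COL1A1 at 9.11 FPKM were the highest. The part of this lower luminal sum in the results below was not tested, and in bulk RNA fewer cells expressing a gene and less of its RNA per cell cannot be told apart.

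The E-box was searched for in the RefSeq promoter windows of these genes (GRCh38.p14, 250 bases before to 50 after each transcription start, 300 bases in all), because it is the DNA sequence that MYC and related factors bind. The motif CACGTG reads the same on both strands. Windows were given for 41 of the 48 genes, and 18 of these 41 (43.9%) held at least 1 copy in any of their windows, against 12.7% of 9669 other tested genes and 8.77% of all 27305 genes with a window. In all 18, a copy began within 35 bases of the start, with a median distance of 14 bases. Among the 1225 other tested genes with a copy, the median distance was 69 bases and 30.9% had a copy as near as 35 bases, a limit set by the most distant of the 18 genes. The ETS-type motif CCGGAAG, searched on both strands, stood in 16 of the 41 genes (39.0%) and in 23.3% of other tested genes, and both motifs stood together in 8 of the 41 (19.5%) against 2.92%. A match describes the letters of the window and is not a binding site. The following 6 windows are shown for the genes on which the comparison turns: RRP9, NOP2, GNL3 and DDX21 had the lowest limma p-values of the 48 genes, GNL2 had the most negative log2 fold change, and NCL, an abundant gene of the nucleolus, has no E-box in its window. Capitals mark the E-box, and each sequence runs 5' to 3' on the strand of the gene.
RRP9 (chr3:51941855-51942154, minus strand): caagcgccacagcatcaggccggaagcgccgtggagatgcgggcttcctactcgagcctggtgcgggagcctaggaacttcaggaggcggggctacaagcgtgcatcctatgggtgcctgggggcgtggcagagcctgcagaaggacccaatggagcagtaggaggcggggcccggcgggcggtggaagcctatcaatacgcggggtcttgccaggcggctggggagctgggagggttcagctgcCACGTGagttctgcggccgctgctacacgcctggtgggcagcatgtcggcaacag
NOP2 (chr12:6568242-6568541, minus strand): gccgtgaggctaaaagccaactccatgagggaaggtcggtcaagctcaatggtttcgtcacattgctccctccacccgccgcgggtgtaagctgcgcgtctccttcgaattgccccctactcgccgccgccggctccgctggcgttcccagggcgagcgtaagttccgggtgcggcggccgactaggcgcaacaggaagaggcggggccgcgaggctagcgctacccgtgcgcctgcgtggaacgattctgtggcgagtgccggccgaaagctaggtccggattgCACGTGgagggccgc
GNL3 (chr3:52685782-52686081, plus strand, the window with the motif): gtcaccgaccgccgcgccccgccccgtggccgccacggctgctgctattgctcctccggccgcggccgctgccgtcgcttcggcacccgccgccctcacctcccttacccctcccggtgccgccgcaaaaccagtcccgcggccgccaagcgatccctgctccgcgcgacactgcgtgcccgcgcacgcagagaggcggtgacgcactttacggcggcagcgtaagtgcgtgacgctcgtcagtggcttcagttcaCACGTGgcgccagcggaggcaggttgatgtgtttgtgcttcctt
DDX21 (chr10:68956397-68956696, plus strand, the window with the motif): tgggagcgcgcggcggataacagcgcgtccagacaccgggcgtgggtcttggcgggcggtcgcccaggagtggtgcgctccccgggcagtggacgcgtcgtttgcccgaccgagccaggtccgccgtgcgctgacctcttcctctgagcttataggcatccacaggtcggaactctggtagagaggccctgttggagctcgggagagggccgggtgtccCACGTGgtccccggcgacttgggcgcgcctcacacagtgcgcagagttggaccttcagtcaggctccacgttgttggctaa
GNL2 (chr1:37595888-37596187, minus strand): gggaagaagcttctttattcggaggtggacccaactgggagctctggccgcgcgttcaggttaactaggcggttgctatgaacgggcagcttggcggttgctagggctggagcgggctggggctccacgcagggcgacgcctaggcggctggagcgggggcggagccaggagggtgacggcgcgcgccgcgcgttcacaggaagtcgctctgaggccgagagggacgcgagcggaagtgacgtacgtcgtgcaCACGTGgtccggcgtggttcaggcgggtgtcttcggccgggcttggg
NCL (chr2:231464435-231464734, minus strand): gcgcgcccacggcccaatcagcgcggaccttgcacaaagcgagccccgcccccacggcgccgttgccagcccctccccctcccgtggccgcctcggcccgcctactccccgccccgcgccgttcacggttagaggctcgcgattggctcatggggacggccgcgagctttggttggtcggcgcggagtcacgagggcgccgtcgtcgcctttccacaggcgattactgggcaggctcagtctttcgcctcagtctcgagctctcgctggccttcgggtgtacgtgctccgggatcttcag

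In these windows the E-box begins 5 bases before the annotated start of RRP9, 31 bases before that of DDX21, and 3, 6 and 35 bases after those of GNL2, GNL3 and NOP2. RRP9 also holds the ETS-type motif. GNL3 and DDX21 each have a second window, at another annotated start, that holds no E-box. Of the 18 genes with an E-box, 10 are small subunit factors and 4 large subunit factors, and none is among the 7 Pol I genes. The plot of E-box positions shows the 18 genes together, with most copies close to the start.

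**Figure D1:**
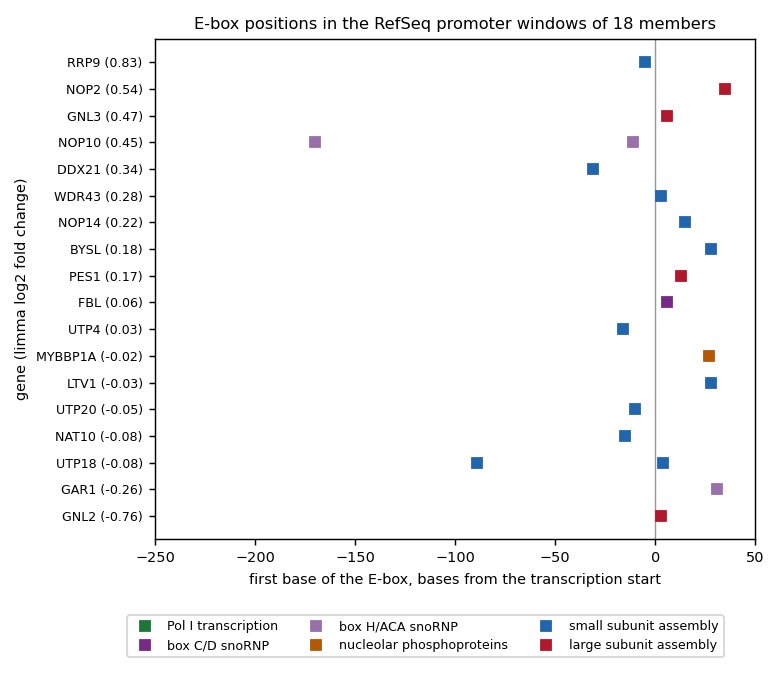
Position of the first base of each CACGTG copy relative to the annotated transcription start (x axis, bases), for the 18 ribosome biogenesis genes with a copy, ordered by limma log2 fold change (in brackets) and coloured by role. In all 18 genes a copy lies within 35 bases of the start, and the genes run from GNL2 at -0.76 to RRP9 at 0.83.

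The comparison of shMETTL1 with shscramble asked whether the loss of METTL1 was accompanied by a change in the transcripts of the ribosome assembly pathway. Across the 48 genes, most transcripts kept similar levels: the log2 fold changes ran from -0.76 (GNL2) to 0.83 (RRP9), with a median of 0.09 by limma on FPKM (0.02 over all 12156 genes tested) and 0.05 by edgeR on estimated counts (0.00 over all genes). All 48 genes passed the filter on low values in both tests. The 95% interval of the log2 fold change lay within 2-fold in either direction for 43 of them, against 64.6% of all genes tested. The 48 genes also had a higher median level, 38.3 against 13.7 FPKM over all genes tested, and a smaller median limma SE, 0.19 against 0.24. The part of the level in these narrower intervals was not tested.

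At an adjusted p under 0.05, limma called none of the 48 genes, in a table where it called 15 genes (0.123% of those tested). At an unadjusted p under 0.05 it gave 4 of the 48 genes as higher (GNL3, RRP9, NOP2 and DDX21), against 7.37% of all genes, and 0 as lower, against 6.8%. One gene, RRP9, passed the thresholds that the study used, an unadjusted p under 0.05 with a fold above 1.5, which 8.97% of all genes passed in either direction. The 2 groups did not overlap in FPKM for 5 genes that were higher in shMETTL1 (RRP9, RRP12, DDX21, NOP2 and GNL3), a share close to the 10.5% of all genes, and for 0 genes that were lower, against 9.33%. edgeR called RRP9 and NOP2 higher, where 2.68% of all genes were called higher, and none of the 48 lower, where 3.65% were called lower. Before adjustment, edgeR gave 9 of the 48 genes a p under 0.05 with a higher level and 2 (GNL2 and WDR75) with a lower one, against 10.7% and 12.1% of all genes.

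**Figure D2:**
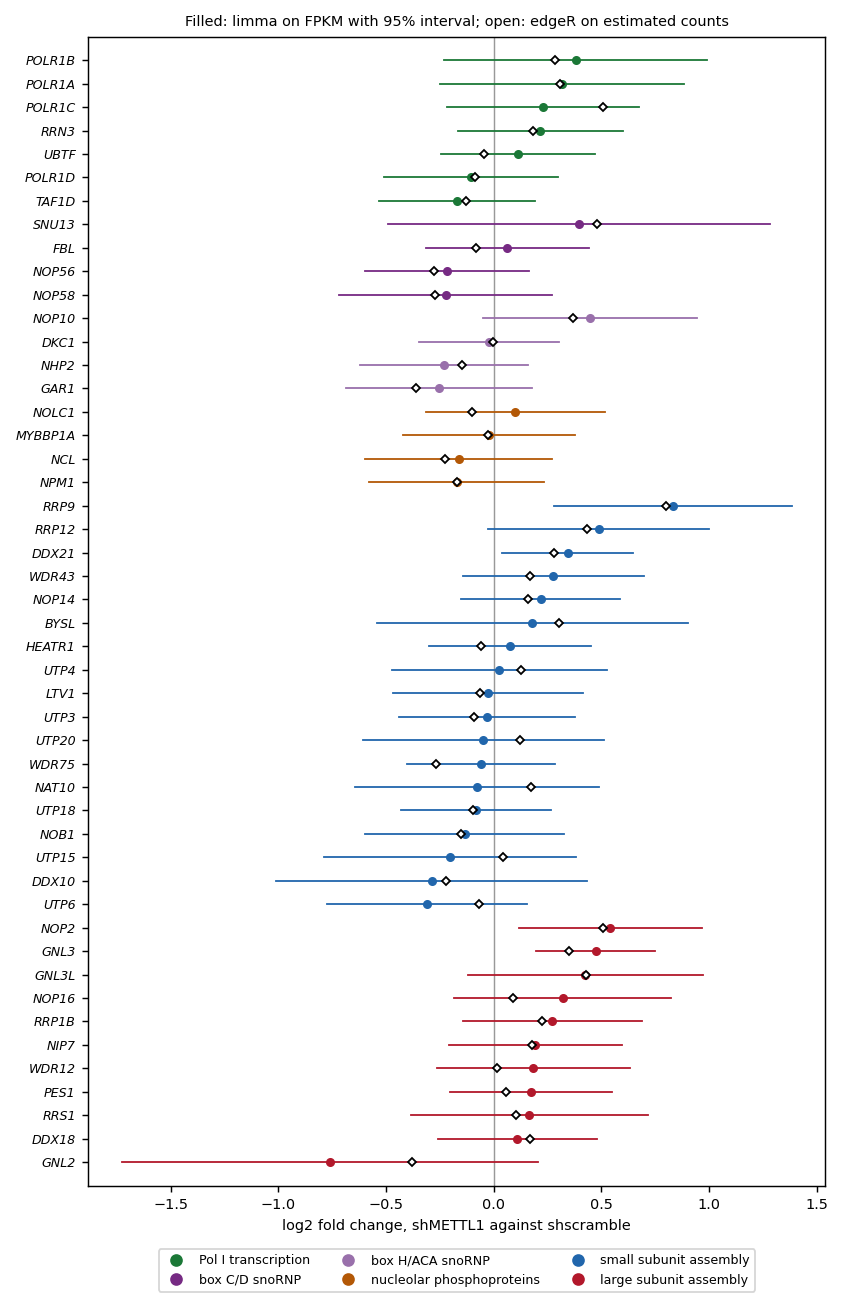
Log2 fold change of shMETTL1 against shscramble (x axis) for the 48 genes, in blocks by role. Filled circles and lines are limma on FPKM with its 95% interval, and open diamonds are edgeR on estimated counts. Large subunit factors lie to the right of 0 in 10 of 11 cases, and the interval clears 0 for RRP9, DDX21, NOP2 and GNL3.

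The roles differed in their medians, given here as descriptions beside the 0.02 of all genes. The median log2 fold change (limma) was 0.22 for Pol I genes, with 5 of 7 positive, and 0.19 for large subunit factors, with 10 of 11 positive. It was -0.03 for small subunit factors (8 of 18 positive, edgeR median 0.08), -0.08 for box C/D proteins (2 of 4 positive), -0.13 for box H/ACA proteins (1 of 4 positive) and -0.09 for the nucleolar phosphoproteins (1 of 4 positive). The 8 snoRNP proteins together had a median of -0.12. Over all genes tested, 6376 of 12156 were positive. No role had a gene called by limma, and the ranges of the roles overlapped.

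Among the Pol I genes, TAF1D, a subunit of the promoter selectivity factor SL1, had the highest level at a mean of 267 FPKM, and the others lay between 20.8 and 56.1 FPKM. POLR1A, the largest subunit of Pol I, was at 26.0, 13.4 and 19.7 FPKM in shscramble and at 24.5, 27.9 and 19.8 FPKM in shMETTL1. Its log2 fold change was 0.32 ± 0.25 (SE, adjusted p = 0.595, limma) and 0.31 ± 0.11 (SE, adjusted p = 0.0957, edgeR). The groups overlapped in FPKM, since shscramble replicate 1 stood among the shMETTL1 libraries. In estimated counts POLR1A was at 440, 524 and 517 in shscramble and at 616, 633 and 648 in shMETTL1, without overlap. The share of all genes without overlap in counts was not computed.

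POLR1B, its partner in the catalytic core, was at 16.8, 32.9 and 17.9 FPKM in shscramble and at 23.8, 26.3 and 35.5 FPKM in shMETTL1. It differed by 0.38 ± 0.27 (SE, adjusted p = 0.549, limma) and 0.28 ± 0.13 (SE, adjusted p = 0.221, edgeR), with shscramble replicate 2 standing among the shMETTL1 values. POLR1C, a subunit shared by Pol I and Pol III, was at 20.9, 26.2 and 22.7 FPKM against 34.3, 22.3 and 26.3 FPKM, a difference of 0.23 ± 0.20 (SE, adjusted p = 0.622, limma). In counts it differed by 0.51 ± 0.22 (SE, adjusted p = 0.176, edgeR), and 1 shMETTL1 library carried most of the FPKM difference. Its estimated counts were 56.1, 75.6 and 46.5 in shscramble and 99.3, 87.8 and 76.3 in shMETTL1, without overlap. RRN3, the initiation factor that recruits Pol I to its promoter, was at 19.4, 17.9 and 20.1 FPKM in shscramble and 25.2, 22.3 and 19.7 FPKM in shMETTL1 (0.22 ± 0.17 SE, adjusted p = 0.589, limma). Its estimated counts were 288, 280 and 287 in shscramble and 359, 345 and 304 in shMETTL1, without overlap (0.18 ± 0.12 SE, adjusted p = 0.406, edgeR). RRN3 has near-identical pseudogene copies, so its reads may be split between them. UBTF, which binds the ribosomal DNA promoter, had a mean of 45.3 FPKM in shscramble and 49.3 FPKM in shMETTL1, and POLR1D, shared with Pol III, had 58.1 and 54.1 FPKM.

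The core proteins of the box C/D particle did not move as a unit. NOP56, a scaffold of the particle, was at 243, 184 and 249 FPKM in shscramble and at 176, 175 and 229 FPKM in shMETTL1 (-0.22 ± 0.17 SE, adjusted p = 0.588, limma). NOP58, its partner, was at 129.8, 70.3 and 104 FPKM against 96.1, 74.2 and 83.1 FPKM (-0.22 ± 0.22 SE, adjusted p = 0.669, limma). In both genes shscramble replicates 1 and 3 were high, while shscramble replicate 2 lay among the shMETTL1 libraries for NOP56 and below all of them for NOP58.

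FBL, the methyltransferase of the particle, was at 126, 193 and 144 FPKM in shscramble and at 152, 164 and 159.5 FPKM in shMETTL1 (0.06 ± 0.17 SE, adjusted p = 0.896, limma), with every shMETTL1 library inside the shscramble range. SNU13, the protein that binds the kink-turn of box C/D RNAs, was at 20.9, 63.8 and 52.6 FPKM against 37.0, 66.0 and 66.5 FPKM (0.40 ± 0.39 SE, adjusted p = 0.672, limma). Its estimated counts were 121, 194 and 154 in shscramble and 214, 227 and 233 in shMETTL1, without overlap (0.48 ± 0.15 SE, adjusted p = 0.0748, edgeR). For SNU13 the FPKM varied 3.18-fold over the libraries and the counts 1.93-fold.

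In the box H/ACA particle, DKC1, the pseudouridine synthase, was at 81.1, 74.8 and 87.3 FPKM in shscramble and 76.3, 73.0 and 90.7 FPKM in shMETTL1 (-0.02 ± 0.14 SE, adjusted p = 0.96, limma). GAR1 was at 42.8, 28.3 and 34.2 FPKM against 31.8, 25.1 and 30.3 FPKM (-0.26 ± 0.19 SE, adjusted p = 0.571, limma). Both genes overlapped between groups. NHP2, the third protein of the complex, was at 131, 98.9 and 112 FPKM against 78.1, 108 and 106 FPKM (-0.23 ± 0.17 SE, adjusted p = 0.571, limma). NOP10, the smallest of the 4 proteins, was at 61.7, 112 and 74.4 FPKM against 113, 124 and 93.0 FPKM (0.45 ± 0.22 SE, adjusted p = 0.395, limma). NOP10 was thus the 1 H/ACA protein with a positive estimate, and its shscramble replicate 2 was as high as the shMETTL1 libraries.

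The nucleolar phosphoproteins held the 2 highest levels of the 48 genes. NCL (nucleolin, which binds precursor rRNA) was at 1011, 649.6 and 898 FPKM in shscramble and at 682, 666 and 923 FPKM in shMETTL1 (-0.16 ± 0.19 SE, adjusted p = 0.729, limma). NPM1 (nucleophosmin, a chaperone of the nucleolus) was at 1035, 749 and 949 FPKM against 743, 684 and 1013 FPKM (-0.17 ± 0.18 SE, adjusted p = 0.691, limma). In both genes the libraries formed a high and a low set that crossed the groups: shscramble replicates 1 and 3 with shMETTL1 replicate 3 were high, and shscramble replicate 2 with shMETTL1 replicates 1 and 2 were low. NPM1 has many processed pseudogenes, so its level depends on how such reads were assigned. NOLC1 (a snoRNP chaperone of the nucleolus) was at 193, 148 and 168 FPKM against 147, 176 and 231 FPKM (0.10 ± 0.18 SE, adjusted p = 0.838, limma), and MYBBP1A was at 56.1, 66.5 and 72.8 FPKM against 51.7, 68.1 and 73.9 FPKM (-0.02 ± 0.18 SE, adjusted p = 0.972, limma).

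**Figure D3:**
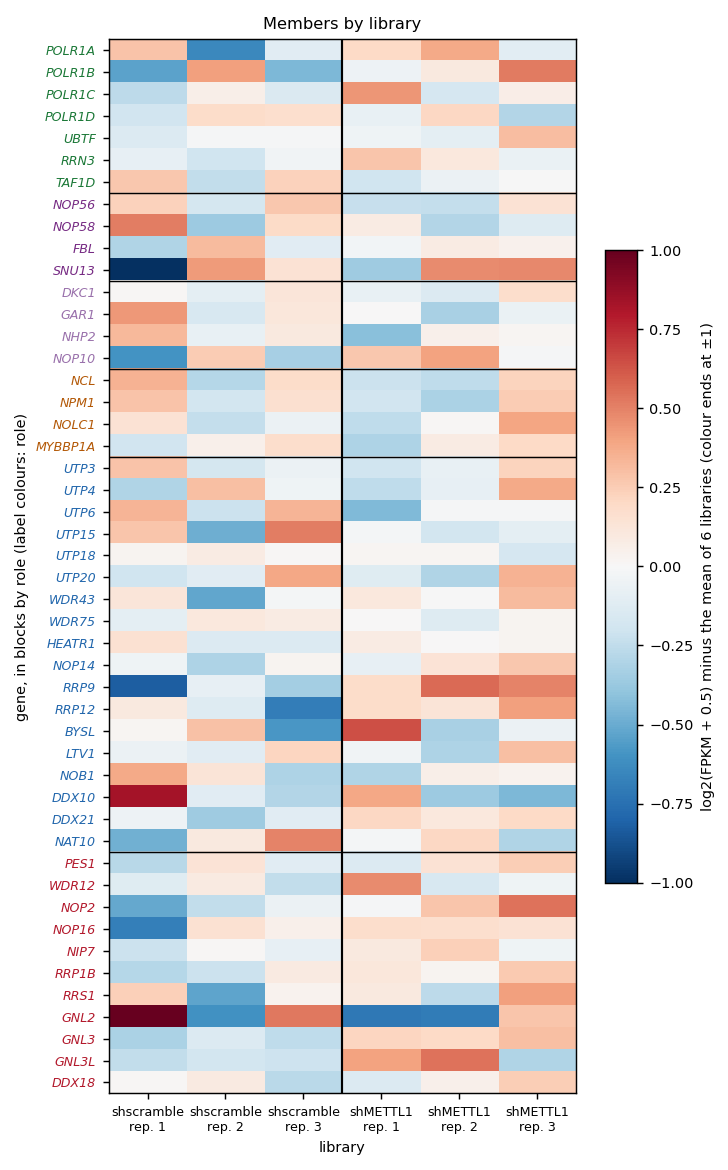
Log2(FPKM + 0.5) of each of the 48 genes minus its mean over the 6 libraries (colour, red above and blue below the mean, ending at 1 in either direction), with genes in rows by role and libraries in columns. Genes such as NCL, NPM1, NOP56 and GNL2 are high in shscramble replicates 1 and 3 and low in shscramble replicate 2, while RRP9 and GNL3 are above their mean in all 3 shMETTL1 libraries and below it in all 3 shscramble libraries.

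Among small subunit factors, RRP9 had the largest difference. RRP9 (also U3-55K) is the protein that marks the U3 snoRNP, the particle that directs the early cuts of the 18S precursor. It was at 5.80, 10.1 and 8.30 FPKM in shscramble (8.05 ± 2.14 SD, n = 3) and at 12.2, 16.0 and 15.2 FPKM in shMETTL1 (14.5 ± 2.01 SD, n = 3), so that every shMETTL1 library was above every shscramble library. Its log2 fold change was 0.83 ± 0.24 (SE, adjusted p = 0.19, limma), a 1.78-fold difference, and 0.80 ± 0.23 (SE, adjusted p = 0.048, edgeR). The estimated counts behind it were small, from 35 to 95 per library. The edgeR call was kept without shscramble replicate 2 (adjusted p = 0.0142) and was lost without any 1 of the other 5 libraries, where the adjusted p lay between 0.0698 (without shMETTL1 replicate 1) and 0.182 (without shMETTL1 replicate 2) and the log2 fold change between 0.65 and 0.92.

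RRP12, a factor for export of the subunits, was at 19.3, 16.4 and 10.9 FPKM against 20.6, 19.7 and 24.1 FPKM (0.49 ± 0.23 SE, adjusted p = 0.371, limma; 0.43 ± 0.14 SE, adjusted p = 0.0741, edgeR). Its groups did not overlap, although shscramble replicate 1 came within reach of the lowest shMETTL1 library. DDX21, an RNA helicase that works on Pol I transcripts and snoRNAs, was at 116, 94.4 and 112 FPKM against 139, 129.6 and 139 FPKM (0.34 ± 0.13 SE, adjusted p = 0.311, limma; 0.28 ± 0.12 SE, adjusted p = 0.186, edgeR). UTP6, a member of the UtpB complex of the processome, was at 45.9, 31.0 and 46.0 FPKM against 26.5, 35.8 and 35.9 FPKM (-0.31 ± 0.21 SE, adjusted p = 0.519, limma), while its edgeR estimate was -0.07.

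The remaining small subunit factors lay between -0.29 (DDX10) and 0.28 (WDR43) by limma. The t-UTP group links Pol I transcription to processing. Of its members, HEATR1 had means of 19.8 and 20.8 FPKM in shscramble and shMETTL1, UTP4 had 30.3 and 30.9 FPKM, and WDR75 had 28.1 and 26.9 FPKM. In estimated counts WDR75 was at 299, 313 and 326 in shscramble and at 264, 255 and 288 in shMETTL1, without overlap (-0.27 ± 0.12 SE, adjusted p = 0.21, edgeR). UTP15 of the same group had 17.2 and 14.3 FPKM, and WDR43 had 90.9 and 109 FPKM. UTP18 had 24.2 and 22.8 FPKM, UTP20 had 12.6 and 12.2 FPKM, UTP3 had 44.3 and 43.2 FPKM, and NOP14 had 40.5 and 47.2 FPKM. Factors of late maturation in the cytoplasm were also close in both groups, with LTV1 at 30.1 and 29.8 FPKM and NOB1, the nuclease that makes the 3' end of 18S rRNA, at 40.8 and 36.7 FPKM. NAT10, the acetyltransferase of 18S rRNA, was at 39.4 and 36.3 FPKM, and BYSL was at 8.28 and 9.54 FPKM, the lowest mean over all 6 libraries (8.91 FPKM) of the 48 genes. None of these genes had an adjusted p under 0.05 in limma or edgeR with all 6 libraries.

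Among large subunit factors, NOP2 and GNL3 led. NOP2, the methyltransferase that places m5C on 28S rRNA, was at 36.5, 44.0 and 50.1 FPKM in shscramble (43.5 ± 6.80 SD, n = 3) and at 51.9, 63.3 and 76.1 FPKM in shMETTL1 (63.8 ± 12.2 SD, n = 3). The groups did not overlap, and the gap between shscramble replicate 3 and shMETTL1 replicate 1 was small. Its log2 fold change was 0.54 ± 0.19 (SE, adjusted p = 0.258, limma) and 0.51 ± 0.14 (SE, adjusted p = 0.0461, edgeR), a 1.46-fold and a 1.42-fold difference. The edgeR call was kept without shMETTL1 replicate 1 (adjusted p = 0.0362) and without shscramble replicate 2 (0.0341), and it was lost without shscramble replicate 1 (0.0976), shscramble replicate 3 (0.119), shMETTL1 replicate 2 (0.142) or shMETTL1 replicate 3 (0.203).

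GNL3 (nucleostemin, a GTPase of the nucleolus) had the lowest unadjusted limma p of the 48 genes, 0.0037. It was at 130.4, 148 and 136 FPKM in shscramble (138 ± 8.87 SD, n = 3) and at 189, 186 and 201 FPKM in shMETTL1 (192 ± 7.58 SD, n = 3), and the lowest shMETTL1 library was well above the highest shscramble library. The log2 fold change was 0.47 ± 0.12 (SE, adjusted p = 0.158, limma) and 0.35 ± 0.11 (SE, adjusted p = 0.0792, edgeR), so it was not called by either. GNL3L, its close relative, was at 11.4, 11.9 and 11.8 FPKM against 18.2, 20.1 and 11.0 FPKM (0.43 ± 0.24 SE, adjusted p = 0.457, limma), with shMETTL1 replicate 3 at the shscramble level. DDX21, NOP2, GNL3 and RRP9, picked above for their low limma p-values, did not overlap between groups, as the plot of FPKM by library shows. That lack of overlap follows largely from the choice of genes. All of them carry an E-box, as do 18 of the 41 genes with a window, so no result about the motif is drawn from them. RRP12, the other gene without overlap, had no promoter window.

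GNL2, the third GTPase of this family and a factor for nuclear export of the large subunit, went the other way. It was at 188, 52.6 and 116 FPKM in shscramble and at 48.8, 49.3 and 97.2 FPKM in shMETTL1 (-0.76 ± 0.43 SE, adjusted p = 0.453, limma), and the FPKM varied 3.85-fold over the libraries. Its estimated counts varied 1.66-fold, at 587, 397 and 521 against 381, 353 and 471 (-0.38 ± 0.17 SE, adjusted p = 0.183, edgeR). Shscramble replicate 2 again lay with the shMETTL1 libraries.

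The other 7 large subunit factors had small positive estimates, from 0.11 (DDX18) to 0.32 (NOP16). PES1 and WDR12, which form the PeBoW complex with another protein, were at means of 64.7 and 72.9 FPKM and of 31.7 and 36.6 FPKM in shscramble and shMETTL1. NIP7 was at 14.5 and 16.7 FPKM, RRP1B at 15.1 and 18.2 FPKM, RRS1 at 30.2 and 33.7 FPKM, NOP16 at 27.4 and 33.2 FPKM, and DDX18 at 53.7 and 58.0 FPKM. None of these differences had an adjusted p under 0.05 in limma or edgeR.

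**Figure D4:**
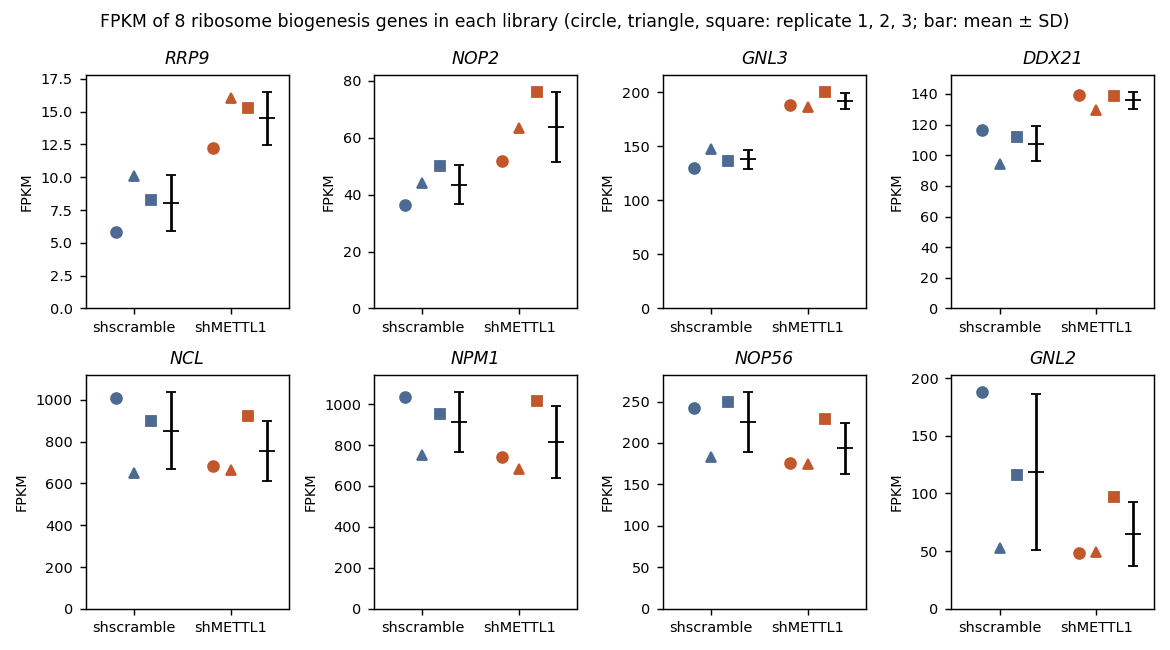
FPKM (y axis, from 0) of 8 genes in each of the 6 libraries, with replicates 1, 2 and 3 as circle, triangle and square, and the mean ± SD of each group (n = 3) as a bar. RRP9, NOP2, GNL3 and DDX21 do not overlap between groups, and in NCL, NPM1, NOP56 and GNL2 the triangle of shscramble replicate 2 lies with the lower shMETTL1 libraries.

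The FPKM and the estimated counts of a gene did not always move together. The ratio of count to FPKM varied more than 1.5-fold over the 6 libraries in 13 of the 48 genes, up to 2.5-fold in GNL2, 2.31-fold in POLR1A and 1.98-fold in BYSL, against 4374 of 11802 genes in all. The ratio varied 1.02-fold in RRP9 and 1.01-fold in DDX21. The limma and edgeR log2 fold changes were -0.76 and -0.38 for GNL2 and 0.23 and 0.51 for POLR1C, so a value for these genes depends on which column is read.

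Several calls turned on 1 control library. Without shscramble replicate 2, which leaves 2 shscramble libraries, edgeR called 10 of the 48 genes. RRP9 (0.94), NOP2 (0.47), SNU13 (0.61) and NOP10 (0.59) were called higher, where 7.68% of all genes were, and NOP56 (-0.43), NOP58 (-0.49), GAR1 (-0.59), NCL (-0.42), NPM1 (-0.30) and GNL2 (-0.56) were called lower, where 9.81% of all genes were. The number of genes called over the whole table rose from 712 to 1989 with the same library left out. By limma without it, none of the 48 genes was called (189 genes over the table), and before adjustment 5 had a p under 0.05 with a higher level and 6 with a lower one, against 12.5% and 8.75% of all genes. The edgeR counts of 4 higher and 6 lower were near the shares over all genes. Neither the C/D proteins nor the phosphoproteins moved as a set in that edgeR fit. NOP56 and NOP58 were called lower, SNU13 was called higher and FBL was at 0.0089. NCL and NPM1 were called lower, while NOLC1 (-0.26) and MYBBP1A (0.01) were not called. In shscramble replicate 2 itself, 24 of the 48 genes were higher and 24 lower than the mean of the other shscramble libraries, against 7147 higher and 4994 lower over all genes tested.

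**Figure D5:**
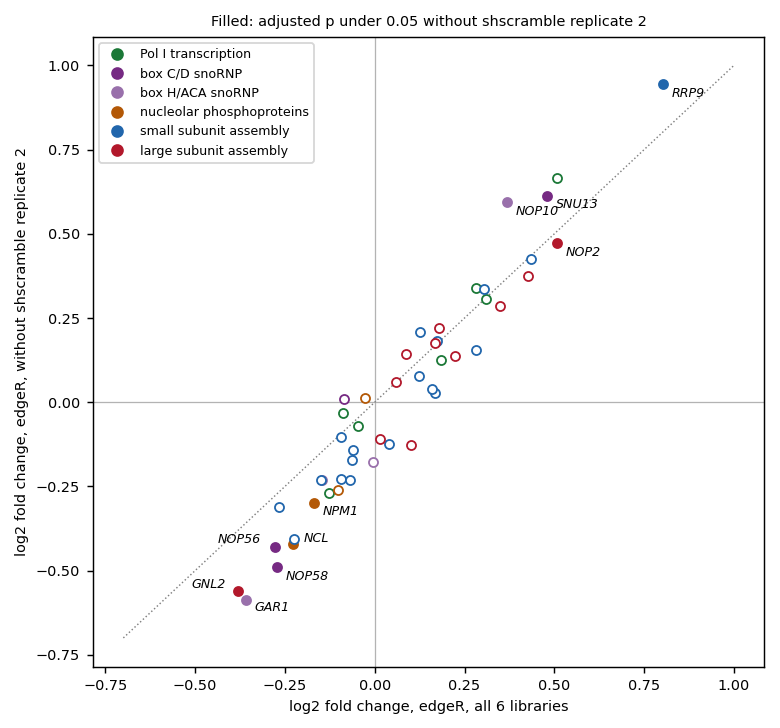
Log2 fold change by edgeR with all 6 libraries (x axis) and without shscramble replicate 2 (y axis) for the 48 genes, coloured by role, with a dotted line of equal values. Filled and named points are the 10 genes with an adjusted p under 0.05 without that library, 4 higher and 6 lower.

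Of the 48 genes, 8 also carry snoRNA genes inside their own introns or span, by the GENCODE v29 annotation (GRCh38): TAF1D holds 8, GNL3 6, NOP56 5, NOP58 4, NCL and WDR43 3 each, DKC1 2 and POLR1C 1. As a description, with the split chosen after values were seen, the 8 hosts had a median log2 fold change of -0.09 and the 40 other genes 0.10. The hosts did not share a direction, since GNL3 was at 0.47 and NOP58 at -0.22. The splits by promoter motif were not planned either and are descriptions too. The 18 genes with an E-box had a median of 0.12 and the 23 with a window and no E-box -0.03. Among other tested genes the medians were 0.04 with and 0.02 without the E-box. The ranges overlapped, since GNL2 at -0.76 also carries an E-box. For the ETS-type motif CCGGAAG, the median was 0.20 in the 16 genes with it and -0.05 in the 25 without it. That gap was wider than for the E-box, and the ranges overlapped there too. Medians of other tested genes with and without CCGGAAG were not computed, so no result about this motif is drawn.

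Wider lists of the same pathway gave the setting for these genes, and limma called no gene in any of them. The 37 other small subunit factors had a median of 0.12 with 25 positive, and neither tool called any of them. At an unadjusted limma p under 0.05, 2 of them were higher and 0 lower. In FPKM the groups did not overlap for 8 higher and 1 lower of them, against 10.5% and 9.33% of all genes. In the 39 other large subunit factors the median was 0.10 with 23 positive. At an unadjusted limma p under 0.05, 1 of them was higher and 4 lower, against 7.37% and 6.8% of all genes. Without overlap in FPKM, 6 of these 39 were higher and 3 lower. NSA2 (-0.48 ± 0.16 SE, adjusted p = 0.247, limma) and LAS1L (-0.51 ± 0.19 SE, adjusted p = 0.301, limma) had the lowest limma p-values of that list. In it edgeR called 1 of the 39 genes lower, against 3.65% of all genes. That gene was NVL, an ATPase of late nuclear assembly. NVL was at 146, 84.2 and 79.7 FPKM against 82.5, 45.7 and 60.0 FPKM (-0.53 ± 0.13 SE, adjusted p = 0.0255, edgeR). The 8 other Pol I factors had a median of -0.16 with 2 positive, opposite in sign to the 7 Pol I genes described above, and none was called by edgeR. The lowest limma p in that list was that of POLR1F, at 0.69 ± 0.25 (SE, adjusted p = 0.27, limma) but 0.14 by edgeR.

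Of the 7 rRNA modification enzymes, edgeR called TSR3, the enzyme that completes a hypermodified base of 18S rRNA, at 29.2, 15.9 and 30.5 FPKM against 9.86, 9.50 and 16.0 FPKM (-1.15 ± 0.28 SE, adjusted p = 0.0223, edgeR; -1.05 ± 0.30 SE, adjusted p = 0.178, limma). BUD23, which like METTL1 makes N7-methylguanosine, but on 18S rRNA, was at 34.7, 35.5 and 38.6 FPKM against 33.8, 30.5 and 45.1 FPKM, with no difference beyond the spread (-0.01 ± 0.18 SE, adjusted p = 0.982, limma). Of the 14 exosome genes, which trim rRNA precursors, 10 had negative estimates (median -0.12), and edgeR called EXOSC9 lower (-0.77 ± 0.21 SE, adjusted p = 0.0394). TSR3 and EXOSC9 were the only genes called in their lists, where edgeR called 3.65% of all genes lower. The 9 snoRNP assembly helpers had a median of 0.09, with none called by either tool.

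The cytosolic ribosomal proteins, the products that assembly joins to rRNA, had a median of 0.06 by limma over 79 genes. Of the 78 tested by edgeR, 2 were called lower, against 3.65% of all genes. They were RPL14 (-0.57 ± 0.15 SE, adjusted p = 0.029, edgeR) and RPL38 (-0.52 ± 0.14 SE, adjusted p = 0.0357, edgeR). Both have near-identical copies elsewhere in the genome, which makes their levels less certain. MYC was at 242, 294 and 231 FPKM in shscramble and 247, 293 and 228 FPKM in shMETTL1, with a log2 fold change of 0.00 ± 0.15 (SE, adjusted p = 0.999, limma), and in the 10 tested genes of its network neither tool called any. Among the 7 genes of nucleolar stress and the p53 response, 3 had positive and 4 negative edgeR estimates. edgeR called MDM2 (0.49 ± 0.11 SE, adjusted p = 0.0133) and CDKN1A (1.37 ± 0.15 SE, adjusted p = 9.6e-05) higher, where 2.68% of all genes were. By limma neither was called, at 0.37 ± 0.16 (SE, adjusted p = 0.35) for MDM2 and 1.51 ± 0.22 (SE, adjusted p = 0.0536) for CDKN1A. A nucleolar stress response was not tested. RPL11, which binds MDM2 when assembly is disturbed, was at 1342, 1186 and 1246 FPKM against 997, 998 and 1011 FPKM. It was not called by either tool (-0.38 ± 0.11 SE, adjusted p = 0.0602, edgeR, and -0.33 ± 0.11 SE, adjusted p = 0.244, limma).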

How the data were processed

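RNA-seq was made from 3 shMETTL1 and 3 shscramble libraries of LNCaP-AI cells. Per the labels, the authors trimmed reads with cutadapt (1.9.3), aligned them to hg19 with HISAT2 (2.0.4) and used Cufflinks and Cuffdiff. The deposited tables give FPKM and an estimated count for each gene in each library, and only 1.8% to 2.51% of the counts were whole numbers, so they are estimates and may be scaled. Their sums, 3389897 to 3604835 per library, may therefore differ from the sequencing depth. Precision is lowest for genes with few counts such as RRP9.

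Symbols were paired with Ensembl identifiers for 19434 of 20308 genes (95.7%). FPKM was tested with limma (3.58.1, trend and robust) on log2(FPKM + 0.5) after removing genes with a mean under 0.5 FPKM, so fold changes are on that scale and understate low genes. Rounded estimated counts were tested with edgeR (4.0.16, quasi-likelihood, TMM) as an alternative, and p-values were adjusted by the Benjamini-Hochberg method over all genes tested. The SE given with edgeR values was derived from its test, as the absolute log2 fold change divided by the square root of the F statistic. DESeq2 (1.42.0) was a further alternative. Tests were run on simulated data with 200 changed genes. There, FPKM was made proportional to the count in each gene, and all genes shared 1 dispersion. That check therefore does not cover genes whose ratio of count to FPKM varied over the libraries. The genes and lists were chosen with earlier results of these data known. Values were written out for up to 4 genes per role with the lowest limma p, for every gene called by limma or edgeR, and for up to 2 genes per wider list; METTL1, MYC and BUD23 were always included. Promoter windows and coordinates come from RefSeq GRCh38.p14 and GENCODE v29, another build than the files.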

Additional observations from a re-analysis of the deposited data

How the results depend on the processing

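The count of genes called over the whole table, 15 by limma on FPKM, was 712 by edgeR, 709 by edgeR with median-ratio size factors, 1094 by edgeR without its filter, 774 by DESeq2, 726 by limma on log2 CPM, and 4 by limma without the FPKM filter. With a replicate block it was 6 by limma and 1015 by edgeR. It ran from 3 to 1989 when single libraries were left out. Of the 48 ribosome biogenesis genes, 0 were called higher by limma on FPKM, 2 by edgeR, by edgeR with median-ratio size factors, by DESeq2 and by limma on log2 CPM, and 3 by edgeR without its filter or with the replicate block. Leaving out single libraries gave 0 to 4 called higher and 0 to 6 called lower, and the 6 arose without shscramble replicate 2. The genes past the study thresholds, 1 in the main comparison, were 2 with the replicate block by limma and 1 to 5 with single libraries left out. In the wider pathway lists together the calls, 0 by limma, were 7 by edgeR and by edgeR with median-ratio size factors, 15 by edgeR without its filter, 13 by DESeq2, 8 by limma on log2 CPM, 1 each with median-ratio scaling, quantile normalization or the limma replicate block, 14 with the edgeR replicate block, and 0 to 43 with single libraries left out.

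The labels do not say whether the replicate numbers pair the libraries. Deviations of same-numbered libraries correlated at 0.0024, 0.053 and -0.024, which cannot settle it with 3 libraries per group. The block is given as an alternative only.

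The median log2 fold change of the 48 genes ran from -0.030 to 0.12 with single libraries left out. For Pol I genes it was 0.22 by limma, 0.18 by edgeR, DESeq2, edgeR with median-ratio size factors or the edgeR replicate block, 0.19 by edgeR without its filter, limma on log2 CPM, median-ratio scaling or quantile normalization, and 0.13 to 0.24 with single libraries left out. For box H/ACA proteins it was -0.13 by limma, -0.075 by edgeR, -0.076 by DESeq2 and edgeR with median-ratio size factors, -0.068 by edgeR without its filter, -0.071 with the edgeR replicate block, -0.062 by limma on log2 CPM, and -0.20 to 0.039 with single libraries left out. The small subunit median changed sign, from -0.030 by limma to 0.082 by edgeR, DESeq2 and edgeR with median-ratio size factors, 0.081 with the edgeR replicate block, 0.090 by edgeR without its filter and 0.091 by limma on log2 CPM, with -0.054 to 0.14 when single libraries were left out. With single libraries left out, the median was -0.24 to -0.032 for box C/D proteins, -0.28 to 0.017 for the phosphoproteins and 0.14 to 0.31 for large subunit factors. METTL1, at -0.93 by limma, passed the threshold at -1.36 by edgeR and edgeR without its filter, -1.37 by DESeq2 and edgeR with median-ratio size factors, -1.35 by limma on log2 CPM and -1.40 with the edgeR replicate block, and ran from -1.72 to -0.80 with single libraries left out.

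Over 47 named genes and 1175 alternative values, 999 kept the direction and side of the threshold, 104 passed the threshold where limma on FPKM did not, 0 lost it and 72 changed sign, in the genes given next. FBL was -0.085 by DESeq2, edgeR and edgeR with median-ratio size factors, -0.077 by edgeR without its filter, -0.080 with the edgeR replicate block and -0.069 by limma on log2 CPM. DKC1 was 0.0021 by edgeR without its filter, 0.0034 with the edgeR replicate block and 0.013 by limma on log2 CPM. NOLC1 was -0.10 by DESeq2 and edgeR with either set of size factors, -0.095 by edgeR without its filter, -0.085 with the edgeR replicate block and -0.075 by limma on log2 CPM. MYC was -0.064 by DESeq2 and edgeR with either set of size factors, -0.056 by edgeR without its filter, -0.066 with the edgeR replicate block, -0.057 by limma on log2 CPM and -0.027 with median-ratio scaling. BUD23 was 0.0070 by DESeq2 and edgeR with median-ratio size factors, 0.0071 by edgeR, 0.0068 by limma on log2 CPM, and 0.015 by edgeR without its filter. With single libraries left out, log2 fold changes ran from -0.14 to 0.24 for FBL, -0.18 to 0.15 for DKC1, -0.26 to 0.25 for NOLC1, -0.17 to 0.11 for MYC, -0.17 to 0.10 for BUD23, -0.086 to 0.71 for SNU13, -0.17 to 0.13 for MYBBP1A, -0.50 to 0.021 for UTP6, -0.0065 to 0.86 for POLR1F, -0.13 to 0.38 for WDR3 and -0.047 to 0.40 for RPAP3. The causes were not tested. Precision is lowest for genes with few estimated counts.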
